A study of Mus musculus with 6 samples.

Results

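The complement genes examined here are 32 genes of the complement system, taken by symbol and with no threshold on measured values from the 34745 genes counted in each library of primary mouse hepatocytes. They were set apart by the cell type that is generally the main source of each product: 21 are made by hepatocytes, 7 by macrophages and related leukocytes, and 4 by other cells. The genes and these sources were chosen with earlier results of these data known. A test across all genes kept 31 of the 32, and only Cfd had no count in any library.

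Complement is a cascade of plasma proteins that tags and lyses targets and recruits leukocytes. Antibody bound by C1q starts the classical pathway, and sugars bound by mannose-binding lectins or ficolins start the lectin pathway. Both pathways cleave C4 and C2 to form an enzyme that activates C3, which the alternative pathway amplifies, and C5 to C9 then build a pore in the target membrane. Hepatocytes secrete most of the plasma components, whereas C1q comes mainly from macrophages and factor D from fat tissue.

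The libraries came from male mice aged 12 weeks with Foxa2 alleles flanked by loxP sites (FOXA2f/f). The control mice were given AAV8-TBG-Control. The FOXA2H-KO mice were given AAV8-TBG-Cre, in which the hepatocyte-specific thyroid-binding globulin promoter drives Cre recombinase in hepatocytes. Virus preceded carbon tetrachloride (CCl4) by 2 weeks, and CCl4, a hepatotoxin that causes fibrosis, was given at 0.25 ml/kg in 2 injections per week over 4 weeks to every mouse of both groups. Hepatocytes were taken by collagenase perfusion on day 3 after the last injection. The strain is not given in the sources used here. No group without CCl4 was analysed, so the comparison is between FOXA2H-KO and FOXA2f/f in fibrotic livers. Each group had 3 libraries, numbered 1, 2 and 4, and values below are given in that order. The labels do not state whether the libraries of a group came from separate mice, and p-values measure the spread between these libraries.

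Total counts were 20983455 to 28327765 per library, and the 32 genes took 2.01% to 2.62% of them. Foxa2, the targeted gene, had 19, 13.5 and 16.4 CPM (counts scaled to the size and composition of the library) in FOXA2f/f and 1.03, 0.762 and 1.62 CPM in FOXA2H-KO, which left 6.98% of the control mean (edgeR quasi-likelihood test with Benjamini-Hochberg adjustment, adjusted p = 0.0313). It was the only one of 14417 genes past an adjusted p of 0.05 and a fold of 2, and it missed the adjusted p with 5 of the 6 libraries left out in turn, with a log2 fold change of −4.17 to −3.63. RNA of other liver cells was present in every library. The summed level of 15 macrophage markers was 1281, 596 and 2812 CPM in FOXA2f/f and 2234, 1949 and 1332 CPM in FOXA2H-KO, and was thus lowest in FOXA2f/f replicate 2 and highest in FOXA2f/f replicate 4. The sums of 10 endothelial, 12 stellate and fibroblast and 10 lymphocyte markers were also lowest in FOXA2f/f replicate 2 and highest in FOXA2f/f replicate 4. Cholangiocyte marker sums were 174 to 367 CPM in FOXA2f/f and 252 to 708 CPM in FOXA2H-KO, with 2 of the 5 markers tested (Krt7 and Spp1) higher at an unadjusted p under 0.05 (1.98% of all genes were). Neutrophil marker sums were 8.22 to 82.5 CPM in FOXA2f/f and 17.7 to 27.9 CPM in FOXA2H-KO. Of the 6 neutrophil markers tested, 4 were lower at that p (3.18% of all genes were) and 0 were without overlap between groups. The hepatocyte markers were abundant in both groups, with a sum over 10 genes of 112193 to 155409 CPM in FOXA2f/f and 106997 to 139255 CPM in FOXA2H-KO. In such bulk samples, fewer cells of a type and less RNA per cell cannot be told apart.

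Per unit of gene length, C3, the central component on which all pathways meet, stood far above the other complement genes. Its level was 1478 to 2140.2 FPKM (fragment counts scaled to gene length and library total, as deposited) over the 6 libraries, rank 30 among all genes by mean, and its lowest library exceeded the highest of Vtn, the next gene, at 513 to 635 FPKM. Vtn encodes vitronectin, which keeps the terminal complex from inserting into membranes. Factor I (Cfi), the protease that inactivates C3b, and clusterin (Clu), another inhibitor of the terminal complex, followed at 327 to 416 FPKM and 306 to 451 FPKM, and their ranges overlapped. From C9 down to C8g the ranges of neighbouring genes overlapped throughout. By mean over the 6 libraries, C1qb was highest among the genes of C1q, C1r and C1s (46.2 to 232 FPKM), Mbl2 among those of the lectin pathway (138 to 303 FPKM) and C9 among those of the terminal pathway (190.3 to 306 FPKM). The range of C1qb overlapped those of C1qa, C1ra, C1s1 and C1qc. Among the membrane regulators Cd59a (9.1 to 11.6 FPKM) lay above Cd55 by mean with overlapping ranges (2.65 to 9.58 FPKM), and of the anaphylatoxin receptors C3ar1 (2.05 to 15.8 FPKM) lay above C5ar1 by mean, again with overlap (0.266 to 2.45 FPKM).

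**Figure D1:**
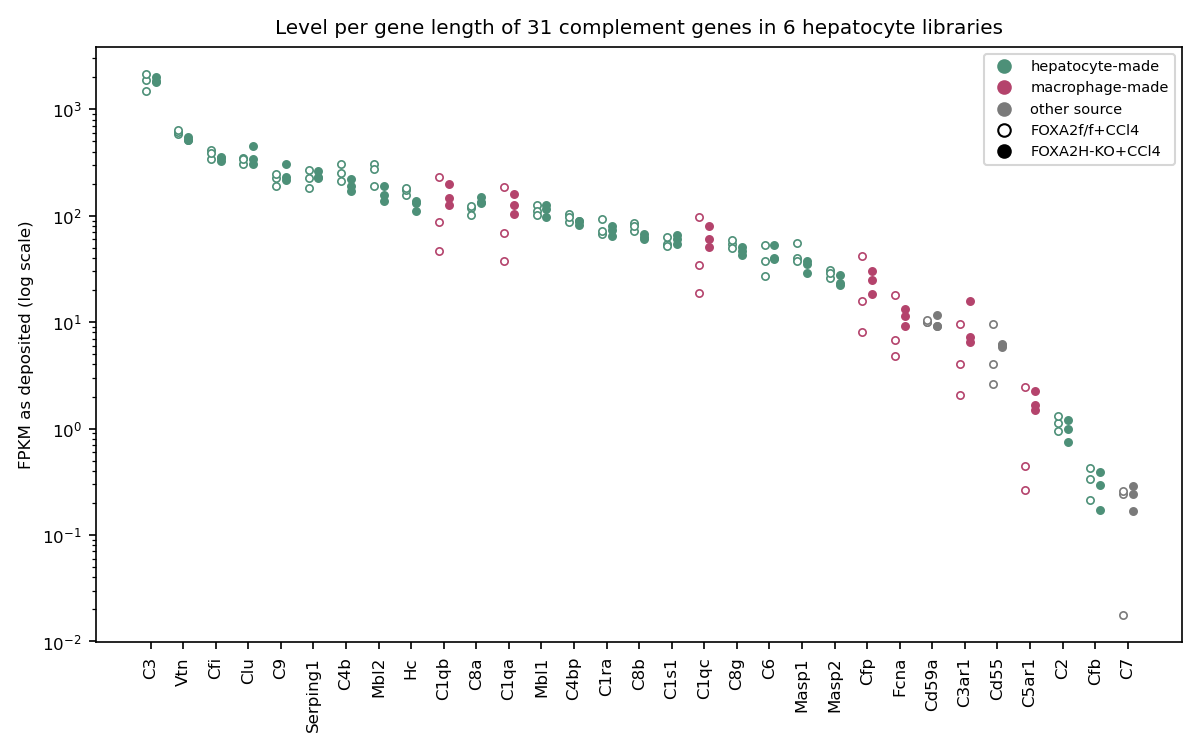
Level per gene length (FPKM as deposited, log axis) of the 31 complement genes with counts, ordered by their mean over 6 libraries, 1 point per library, open for FOXA2f/f and filled for FOXA2H-KO, coloured by main source. C3 lies between 1478 and 2140.2 FPKM, and C1qb spreads from 46.2 to 232 FPKM.

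The lowest levels need care. Cfd, encoding factor D, the protease that starts the alternative pathway, had 0 counts in every library, which allows up to 0.0953 to 0.164 CPM at 3 counts per library (counting error only). Cfb, encoding factor B, and C2, which are neighbours on chromosome 17 at chr17:34856374-34862518 and chr17:34862604-34898265 (mm10, GENCODE M21, minus strand), stood at 0.172 to 0.427 FPKM and 0.748 to 1.31 FPKM. By the annotation, 79.5% of the exon bases of Cfb and 42.8% of those of C2 also belong to Gm20547, an annotated gene on the same strand that spans Cfb and part of C2 and was listed at 0 counts in all 6 libraries. A counter that leaves out fragments shared by several genes would lose them here, and the counting mode is not given in the sources used here, so the levels of Cfb and C2 are uncertain. C7, made mainly by other cells than hepatocytes, was at 0.0176 to 0.286 FPKM.

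Between the groups, 17 of the 21 hepatocyte-made genes were lower in FOXA2H-KO (81%, against 52.2% of all genes tested), with a median log2 fold change of −0.27 against −0.012 over all genes. Of the 10 hepatocyte markers, 7 were also lower by fitted value and 3 higher, with a median log2 fold change of −0.091. No complement gene was called differentially expressed, with adjusted p-values of 0.65 to 0.999 by edgeR, where 0.00694% of all genes were called. At an unadjusted p under 0.05 stood 5 of the 31, all lower in FOXA2H-KO (16.1%, against 5.17% of all genes in either direction and 3.18% that were lower). The 3 libraries of FOXA2H-KO all lay below the 3 of FOXA2f/f for 9 of the 31 (29%, against 5.96% of all genes), and above them for 0 (4.54% of all genes, 10.5% in either direction). Those 9 genes, all hepatocyte-made, were Mbl2, Masp1, Masp2, C4b, C2, Hc, C8b, C8g and Vtn. Because the list and its sources were chosen with earlier results of these data known, the shares above are descriptions and not tests of the list. DESeq2 placed 1 complement gene, Mbl2, under an adjusted p of 0.05 (0.0494, log2 fold change −0.79, under a 2-fold change), against 0.579% of all genes it tested. With scaling by library size alone the median over all genes was 0.10, and 4 of the 9 genes (C8b, Hc, Masp1 and Vtn) still lay below without overlap (3.24% of all genes). Relative to the median of all genes, the hepatocyte-made median was −0.26 with the composition scaling and −0.26 with library size alone. Rescaling the libraries shifts all genes by nearly the same amount. These relative medians therefore had to be close and do not test the scaling.

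**Figure D2:**
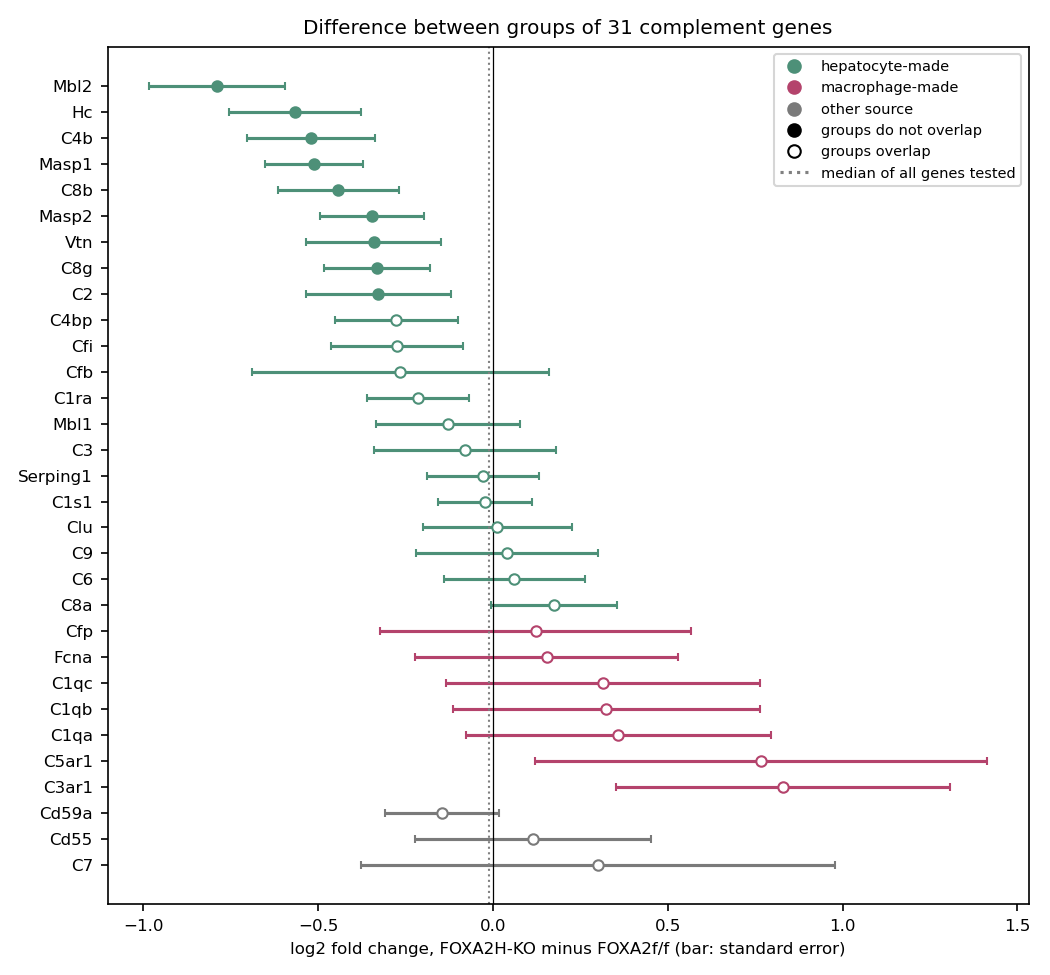
Log2 fold change of FOXA2H-KO over FOXA2f/f (x axis) with its standard error (bars) for the 31 complement genes tested by edgeR, coloured by main source, filled where the 3 libraries of one group did not overlap those of the other. The 9 filled points are all hepatocyte-made genes left of 0, and the 7 macrophage-made genes lie right of 0 with wide bars.

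The lectin pathway held the lowest log2 fold change of the 31 genes. Mbl2 encodes mannose-binding lectin C, a soluble receptor for microbial sugars, and had 367, 238 and 273 CPM in FOXA2f/f and 185, 169.9 and 153 CPM in FOXA2H-KO. All FOXA2H-KO libraries were below all FOXA2f/f libraries. The log2 fold change was −0.79 ± 0.19 (SE), with an unadjusted p of 0.00391 and an adjusted p of 0.65 by edgeR. Leaving out a library in turn gave −0.91 to −0.58. Masp1, the protease gene that also yields the MASP-3 and MAp44 forms, which gene counts do not separate, had 122, 119 and 137 CPM in FOXA2f/f and 85.4, 100.5 and 79.9 CPM in FOXA2H-KO (log2 fold change −0.51 ± 0.14, unadjusted p = 0.00693 by edgeR). The groups did not overlap here either. Masp2, the protease that cleaves C4 and C2, stood at 114, 140.4 and 103 CPM in FOXA2f/f and 99, 91.6 and 90.3 CPM in FOXA2H-KO, without overlap and with a log2 fold change of −0.35 ± 0.15 (edgeR, unadjusted p = 0.0514). In the annotation 54.9% of the Masp2 exon bases lie over Tardbp on the other strand, and strand use in counting is not given, so this count may hold Tardbp fragments or lack shared ones. The paralog Mbl1, encoding mannose-binding lectin A, had 128, 117 and 85 CPM in FOXA2f/f and 79.4, 105 and 117 CPM in FOXA2H-KO, and these overlapped (log2 fold change −0.13 ± 0.21). Ficolin A (Fcna) is described with the macrophage-made genes.

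Of the classical pathway, the hepatocyte-made protease genes C1ra and C1s1, which encode the C1r and C1s that C1q carries, overlapped between the groups. C1ra had 239 ± 16.6 CPM in FOXA2f/f and 206 ± 22.5 CPM in FOXA2H-KO (SD, n = 3; log2 fold change −0.21 ± 0.15), and C1s1 299.7 ± 7.76 CPM in FOXA2f/f and 295 ± 11.9 CPM in FOXA2H-KO (−0.023 ± 0.13). C1rb, a near-identical neighbour of C1ra, may share its reads, and the sum of both gave a log2 ratio of −0.21, also with overlap. C1s2, the neighbour of C1s1, was at or near 0, and 18.4% of the C1s1 exon bases lie over Gm16567 on the other strand, which had 0 counts. C4b, encoding the C4 that forms the convertase shared with the lectin pathway, had 1750.3, 1537 and 1739.6 CPM in FOXA2f/f and 1253, 1177 and 1074 CPM in FOXA2H-KO. Every FOXA2H-KO library was below the lowest of FOXA2f/f. The log2 fold change was −0.52 ± 0.18 (unadjusted p = 0.023, adjusted p = 0.84 by edgeR). Summed with its near-identical neighbour C4a, the log2 ratio was −0.50 and the groups stayed apart. C2, the convertase protease that pairs with C4b, had 7.04, 6.2 and 6.67 CPM in FOXA2f/f and 6.07, 5.53 and 4.25 CPM in FOXA2H-KO, without overlap (log2 fold change −0.33 ± 0.21, unadjusted p = 0.153 by edgeR), on the uncertain count described above.

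C3 itself had 11697, 9659 and 10945 CPM in FOXA2f/f and 10063, 10041 and 10455 CPM in FOXA2H-KO. The groups overlapped, and the log2 fold change was −0.080 ± 0.26. With library size alone it was 0.032, of the opposite sign, so no direction is given for C3. Factor B (Cfb) had 1.61 ± 0.426 CPM in FOXA2f/f and 1.35 ± 0.582 CPM in FOXA2H-KO (SD, n = 3), on the uncertain count described above, with overlap.

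In the terminal pathway Hc, C8b and C8g separated the groups, and C6, C7, C8a and C9 did not. Hc encodes C5, whose cleavage gives the anaphylatoxin C5a and the seed of the pore, and had 1202, 1395 and 1137 CPM in FOXA2f/f and 818, 756 and 949 CPM in FOXA2H-KO. The groups were apart, and the log2 fold change was −0.57 ± 0.19 (unadjusted p = 0.0182, adjusted p = 0.828 by edgeR). C8 is a protein of alpha, beta and gamma chains from separate genes. C8b, for the beta chain, had 264, 330.0 and 238 CPM in FOXA2f/f and 181, 219 and 212 CPM in FOXA2H-KO (−0.44 ± 0.17, unadjusted p = 0.0356 by edgeR). C8g, for the gamma chain, had 188, 180.5 and 166 CPM in FOXA2f/f and 119.7, 158 and 147 CPM in FOXA2H-KO (−0.33 ± 0.15, unadjusted p = 0.0617 by edgeR). Neither of these overlapped between groups. C8a, for the alpha chain, had 864, 783 and 739 CPM in FOXA2f/f and 799.8, 869 and 1024 CPM in FOXA2H-KO, and its groups overlapped with the FOXA2H-KO mean the higher (0.17 ± 0.18). C9, which polymerises into the pore, had 818, 949 and 567 CPM in FOXA2f/f and 678, 703 and 1020.3 CPM in FOXA2H-KO, with overlap (0.041 ± 0.26). C6, which joins C5b, overlapped at 193 ± 44.8 CPM in FOXA2f/f and 201 ± 22.3 CPM in FOXA2H-KO (SD, n = 3).

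**Figure D3:**
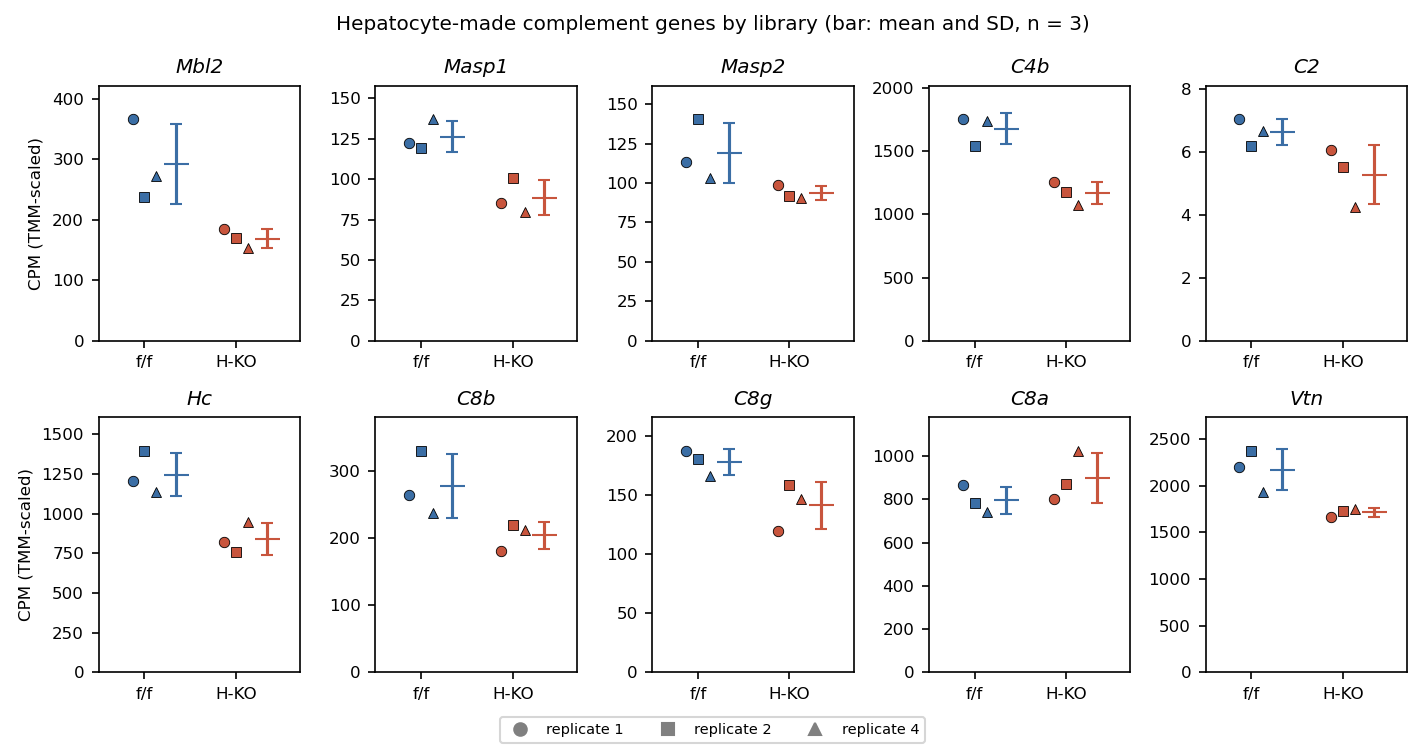
TMM-scaled CPM (y axes from 0) of 10 hepatocyte-made complement genes in the 3 FOXA2f/f and 3 FOXA2H-KO libraries, with the replicate number as the symbol and mean and SD as bars. In 9 panels every FOXA2H-KO point lies below every FOXA2f/f point, and C8a is the exception.

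Ratios of genes within a library do not depend on how libraries are scaled to each other, and these were chosen after values were seen. The FPKM of C8b over that of C8a was 0.617, 0.85 and 0.649 in FOXA2f/f and 0.456, 0.509 and 0.418 in FOXA2H-KO, a log2 difference of −0.60. C8g over C8a was 0.463, 0.491 and 0.48 in FOXA2f/f and 0.319, 0.389 and 0.306 in FOXA2H-KO (−0.51). In both ratios the groups did not overlap (p = 0.1 by an exact permutation test of both sides, as low as 3 libraries against 3 can reach). C8b and C8g were already lower without overlap and C8a was not, so this p adds no evidence. The ratio of C4b to C3 was 0.135, 0.144 and 0.143 in FOXA2f/f and 0.112, 0.106 and 0.0926 in FOXA2H-KO, that of Hc to C3 0.0843, 0.118 and 0.0852 in FOXA2f/f and 0.0667, 0.0617 and 0.0745 in FOXA2H-KO, and that of Mbl2 to C3 0.162, 0.127 and 0.128 in FOXA2f/f and 0.0949, 0.0873 and 0.0754 in FOXA2H-KO. Each of these was lower in all FOXA2H-KO libraries, with log2 differences of −0.45, −0.49 and −0.69. The ratios of Mbl2 to Mbl1 and of Masp1 to Masp2 overlapped between groups.

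**Figure D4:**
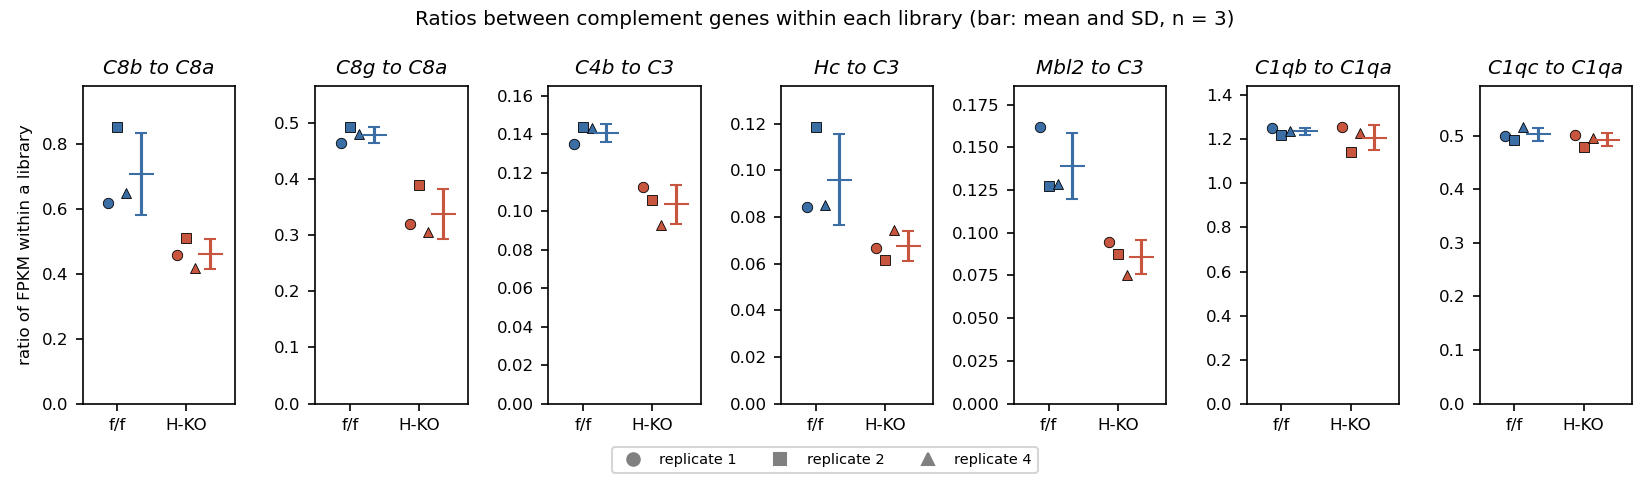
Ratios of the FPKM of complement genes within each library (y axes from 0), 3 libraries per group with mean and SD, with the replicate number as the symbol. The first 5 ratios are lower in every FOXA2H-KO library, and the ratios among the C1q genes are close to constant over all 6.

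C8a and C8b are neighbours on chromosome 4, with C8b at chr4:104766317-104804548 on the plus strand and C8a at chr4:104815679-104876398 on the minus strand (mm10, GENCODE M21). The bases just upstream of their starts are shown because the ratio of C8b to C8a separated the groups, and those of Mbl2 and Hc because these had the lowest log2 fold changes. Forkhead proteins such as FOXA2 bind sites built on TGTTTAC and related letters. The letters TGTTTAC or TGTTTGC, and likewise TATTTAC or else TATTTGC, were searched on both strands of the 250 bases before the RefSeq starts (GRCm38.p6), and 11.9% of 32851 promoter windows held a match. Of the 32 genes, 24 had a RefSeq promoter entry, with 26 windows. A match was in 5 of these windows, from 4 genes (C1s1, C6, C8b and Cd59a). The windows of C1s1 overlap each other and hold the same match, which is counted in each of them. Masp1, C4b and C2, which separated the groups, had no entry and were not searched. The window of C8b held 2, at 32 to 26 and 15 to 9 bases before the start, printed in capitals and not overlapping each other. The windows of C8a, Mbl2 and Hc held 0, which says only that these letters are not in these windows, and a match is a description and not a binding site. The windows are C8b chr4:104766067-104766316 (plus strand), C8a chr4:104876399-104876648 (minus), Mbl2 chr19:30232678-30232927 (plus) and Hc chr2:35061413-35061662 (minus), each 5′ to 3′ on its gene's strand. The end of the Hc window lies inside the GENCODE gene, which starts further upstream.
C8b: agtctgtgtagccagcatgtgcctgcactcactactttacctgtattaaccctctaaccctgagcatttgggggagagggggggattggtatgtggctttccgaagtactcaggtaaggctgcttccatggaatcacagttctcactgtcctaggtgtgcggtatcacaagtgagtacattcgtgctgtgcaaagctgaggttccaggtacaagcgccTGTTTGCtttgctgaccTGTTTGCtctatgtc
C8a: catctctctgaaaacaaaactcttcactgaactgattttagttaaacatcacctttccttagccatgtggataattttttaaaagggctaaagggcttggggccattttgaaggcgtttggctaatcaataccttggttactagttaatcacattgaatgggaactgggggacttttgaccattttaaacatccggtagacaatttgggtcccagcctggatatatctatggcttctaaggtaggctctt
Mbl2: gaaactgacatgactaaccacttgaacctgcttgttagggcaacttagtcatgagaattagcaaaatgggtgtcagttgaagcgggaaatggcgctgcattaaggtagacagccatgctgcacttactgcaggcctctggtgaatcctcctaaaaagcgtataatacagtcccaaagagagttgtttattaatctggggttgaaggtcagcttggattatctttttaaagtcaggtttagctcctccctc
Hc: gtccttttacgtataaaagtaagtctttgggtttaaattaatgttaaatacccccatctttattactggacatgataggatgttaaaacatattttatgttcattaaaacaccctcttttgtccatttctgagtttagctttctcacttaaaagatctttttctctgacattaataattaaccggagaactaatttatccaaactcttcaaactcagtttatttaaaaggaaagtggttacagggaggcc

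Of the fluid-phase regulators, Vtn had 2204, 2376 and 1937 CPM in FOXA2f/f and 1664, 1729 and 1753 CPM in FOXA2H-KO, without overlap (log2 fold change −0.34 ± 0.19, unadjusted p = 0.117 by edgeR). The other 4 overlapped between groups. C4bp, the cofactor for cleavage of C4b, had 742 ± 101 CPM in FOXA2f/f and 613 ± 36.9 CPM in FOXA2H-KO (SD, n = 3; log2 fold change −0.28 ± 0.18). Cfi had 977 ± 135 CPM in FOXA2f/f and 808 ± 83.5 CPM in FOXA2H-KO (−0.27 ± 0.19). Serping1, encoding the C1 inhibitor, and Clu had log2 fold changes of −0.028 ± 0.16 and 0.013 ± 0.21. Serping1, like C1s1, was of the opposite sign with library size alone.

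The macrophage-made genes took the other direction by fitted value, and none separated the groups. All 7 had a log2 fold change above 0, with a median of 0.32, 0 at an unadjusted p under 0.05 (1.98% of all genes were higher at that p) and 0 without overlap. C1qa had 78.8, 45.3 and 176 CPM in FOXA2f/f and 147, 130.0 and 108 CPM in FOXA2H-KO. C1qb had 103, 57.8 and 228 CPM in FOXA2f/f and 193, 156 and 139 CPM in FOXA2H-KO. C1qc had 81.4, 46.1 and 187 CPM in FOXA2f/f and 153, 129 and 111 CPM in FOXA2H-KO. In these subunit genes of C1q, FOXA2f/f replicate 2 was the lowest library and FOXA2f/f replicate 4 the highest, with FOXA2H-KO between them, as for the macrophage marker sum. The C1q genes lie side by side on chromosome 4 (C1qb chr4:136880129-136886187, C1qc chr4:136889804-136893065 and C1qa chr4:136895917-136898803, minus strand), and their FPKM kept a near-constant ratio, 1.14 to 1.25 for C1qb to C1qa and 0.479 to 0.516 for C1qc to C1qa over all 6 libraries.

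Properdin (Cfp), which stabilises the alternative convertase, had 35.5, 18.8 and 76.2 CPM in FOXA2f/f and 55.4, 49.3 and 37.6 CPM in FOXA2H-KO (log2 fold change 0.12 ± 0.44). Fcna had 11.7, 8.61 and 25.2 CPM in FOXA2f/f and 16, 20.5 and 14.5 CPM in FOXA2H-KO (0.15 ± 0.38). For both genes the FOXA2H-KO libraries lay within the range of FOXA2f/f. C3ar1, the C3a receptor, had 19.2, 10.1 and 37.5 CPM in FOXA2f/f and 60.5, 30.9 and 28 CPM in FOXA2H-KO (0.83 ± 0.48, adjusted p = 0.962 by edgeR), and its highest library was FOXA2H-KO replicate 1. C5ar1, the C5a receptor, had 2.45, 1.54 and 11.1 CPM in FOXA2f/f and 10.2, 7.38 and 8.51 CPM in FOXA2H-KO (0.77 ± 0.65, adjusted p = 0.983 by edgeR). With a library left out in turn, the log2 fold change was 0.40 to 1.43 for C3ar1 and 0.35 to 2.11 for C5ar1, the highest of each without FOXA2f/f replicate 4. The lowest was without FOXA2H-KO replicate 1 for C3ar1 and without FOXA2f/f replicate 2 for C5ar1.

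Each of the 15 macrophage markers was lowest in FOXA2f/f replicate 2, and 9 were highest in FOXA2f/f replicate 4. The other 6 (Cd68, Lyz2, Ccr2, Lgals3, Aif1 and Cx3cr1) were highest in FOXA2H-KO replicate 1. Clec4f, a Kupffer cell lectin, had 138, 83.9 and 302 CPM in FOXA2f/f and 228, 221 and 146 CPM in FOXA2H-KO, Adgre1 (F4/80) 56.8, 33.1 and 140.2 CPM in FOXA2f/f and 116, 102 and 77.1 CPM in FOXA2H-KO, and Csf1r, the receptor for the macrophage growth factor CSF1, 151, 69.6 and 362 CPM in FOXA2f/f and 254, 233 and 160.3 CPM in FOXA2H-KO. Of the 15 macrophage markers, 12 were higher and 3 lower by fitted value, with a median log2 fold change of 0.36, and 1 (Ccr2, the receptor for the chemokine CCL2) was at an unadjusted p under 0.05, at 13.1, 6.69 and 11.7 CPM in FOXA2f/f and 20.7, 18.2 and 19.6 CPM in FOXA2H-KO without overlap. Per 100 counts of the 15 markers, C1qa took 6.15 to 8.1 counts over all 6 libraries. C3ar1 took 1.5, 1.7 and 1.33 in FOXA2f/f and 2.71, 1.59 and 2.1 in FOXA2H-KO, and C5ar1 0.191, 0.258 and 0.393 in FOXA2f/f and 0.454, 0.379 and 0.639 in FOXA2H-KO, and in both the groups overlapped. The part of macrophage RNA in the levels of these 7 genes was not tested beyond these ratios.

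**Figure D5:**
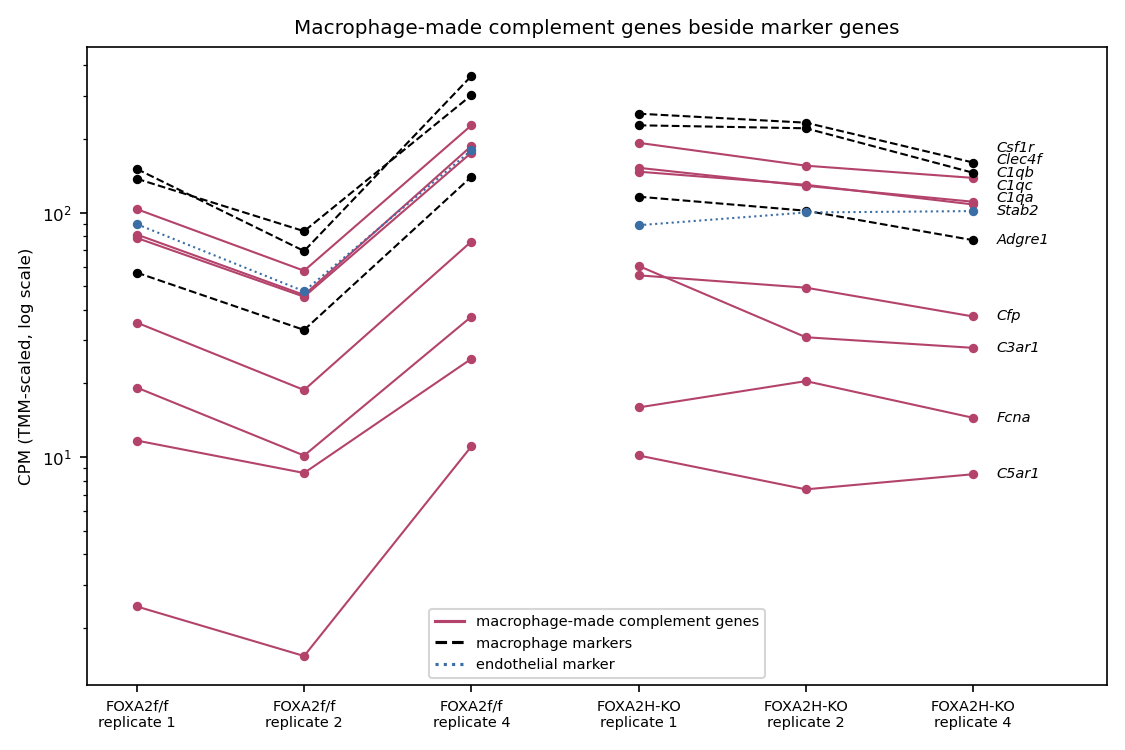
TMM-scaled CPM (log axis) of the 7 macrophage-made complement genes (solid), 3 macrophage markers (dashed) and the endothelial marker Stab2 (dotted) in each of the 6 libraries, where lines join libraries of a group and imply no order. Each gene shown is lowest in FOXA2f/f replicate 2 and, except for C3ar1, highest in FOXA2f/f replicate 4.

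Single libraries moved these values. Relative to the median of all genes, the median of the 7 macrophage-made genes was 0.34 with all libraries, 1.05 without FOXA2f/f replicate 4 and −0.019 without FOXA2f/f replicate 2. Without FOXA2f/f replicate 4, all 7 lay above FOXA2f/f without overlap, and so did Cd55 (18% of all genes did). For the 21 hepatocyte-made genes the same median stayed between −0.31 and −0.17 with any 1 library left out. The summed level of the 21 was 25206, 22872 and 22746 CPM in FOXA2f/f and 20982, 20600.2 and 21878 CPM in FOXA2H-KO, without overlap. Much of this sum was C3, with a mean of 10767 CPM in FOXA2f/f, where the sum had a mean of 23608 CPM. The sum of the hepatocyte markers overlapped between groups. Most of the marker sum was Alb, with a mean of 109009.5 CPM in FOXA2f/f, where the marker sum had a mean of 135554.5 CPM. The ratio of the FOXA2H-KO mean to the FOXA2f/f mean was 0.896 for the 21 genes and 0.927 for the markers. With library size alone the sum of the 21 overlapped, at 22925, 19879 and 25264 CPM in FOXA2f/f and 23564, 20967 and 21707 CPM in FOXA2H-KO. The separation of the sum of the 21 thus rests on the composition scaling. The part of non-hepatocyte RNA in this difference was not tested.

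The genes of other sources did not separate the groups. Cd59a, whose GPI-anchored product blocks the pore on host cells, had 38.9, 41 and 33.6 CPM in FOXA2f/f and 28.9, 40.8 and 32.9 CPM in FOXA2H-KO (log2 fold change −0.15 ± 0.16). Cd55, encoding decay-accelerating factor, which dissociates convertases, had 27.7, 19 and 53.7 CPM in FOXA2f/f and 34, 38.4 and 36.6 CPM in FOXA2H-KO (0.11 ± 0.34), lowest in FOXA2f/f replicate 2 and highest in FOXA2f/f replicate 4 like the macrophage markers. Their neighbouring paralogs Cd59b and Cd55b had 1.13 and 0.146 CPM on average in FOXA2H-KO. C7 was at 0.474 ± 0.366 CPM in FOXA2f/f and 0.604 ± 0.15 CPM in FOXA2H-KO (SD, n = 3).

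A further 31 complement genes outside the 32 were listed for comparison. Of the 26 tested, 18 were lower and 8 higher, with a median log2 fold change of −0.092, 0 called, and 2 at an unadjusted p under 0.05, both lower without overlap. These 2 are 7.69% of the 26, against 3.18% of all genes that were lower at that p and 5.96% that were lower without overlap. A count of 2 genes is too small to set apart from these shares. Cpn1, the catalytic subunit of carboxypeptidase N, which inactivates the anaphylatoxins, had 197, 269.6 and 184 CPM in FOXA2f/f and 133, 143 and 145 CPM in FOXA2H-KO (−0.63 ± 0.18, adjusted p = 0.713 by edgeR). Its partner Cpn2 overlapped at 317 ± 25.9 CPM in FOXA2f/f and 302 ± 8.48 CPM in FOXA2H-KO (SD, n = 3). Susd4, a membrane inhibitor of convertases, had 0.73, 2.25 and 0.89 CPM in FOXA2f/f and 0.515, 0.521 and 0.462 CPM in FOXA2H-KO (−1.33 ± 0.51, adjusted p = 0.917 by edgeR), with FOXA2f/f replicate 2 far above the other libraries. C1s2, Cd55b, Fcnb, Csmd1 and Ptx3 were too low to test, and Csmd1 had no count in any library.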

How the data were processed

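RNA-seq of primary hepatocytes was analysed in 6 libraries, 3 per group. Per the submitters' processing notes, CASAVA 1.8, TopHat2 2.1.0, HTSeq and edgeR were used with mm10, and the annotation and counting mode are not given in the sources used here. The authors deposited, for 34745 Ensembl genes, unnormalized whole-number fragment counts per gene. The deposited FPKM values follow from these counts, the total count and 1 length per gene, with no scaling for composition. Symbols were found for 34267 genes.

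Counts were tested by the quasi-likelihood test of edgeR 4.0.16 under R 4.3.3, with TMM factors, over the 14417 genes that filterByExpr kept, and adjusted by Benjamini-Hochberg. A gene was called at an adjusted p under 0.05 and a fold of at least 2. Standard errors (SE) were taken as the fold change on the log2 scale divided by the square root of F. Ratios were tested by exact permutation of the 3 libraries against 3, both sides counted. The common biological coefficient of variation was 25.3%. Replicate libraries differed by 35.9 to 123 times the counting noise (chi-square per degree of freedom), more than for a library deposited again, which does not show that they came from separate mice. Positions and exon overlaps came from GENCODE M21, whose identity with the authors' annotation is not known, and promoter windows from RefSeq.

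Values per library were given for Foxa2, genes with an unadjusted p under 0.05 or without overlap, the highest of each role, and all macrophage-made genes, and a few genes outside this rule were added after their values were seen. A gene of the comparison list is not reported here. The members, their sources and the marker lists were chosen with earlier results of these data known. Alternatives were DESeq2 1.42.0, library size alone, upper quartile factors, edgeR's exact test, no filter, at least 10 counts in every library, no fold threshold, limma 3.58.1 on log2(FPKM + 1) at a mean FPKM of at least 1, a replicate block and each library left out. Scaling to 10 hepatocyte markers, ratios within libraries sums with near-identical genes and the summed level under library size alone were added after seeing the data. A series-wide table held the same values and was not used.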

Additional observations from a re-analysis of the deposited data

How the results depend on the processing

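The number of genes called in the whole table, 1 by edgeR's quasi-likelihood test, was 75 with DESeq2, 64 with edgeR's exact test, 2 with no filter and 0 with library size alone, limma on log2(FPKM + 1), the replicate block and scaling to hepatocyte markers (added after seeing the data), and 0 to 6 with a library left out. It was 1 with upper quartile factors, at least 10 counts in every library and no fold threshold. No complement gene was called under any of these settings. Complement genes at an unadjusted p under 0.05 numbered 5, against 3 with library size alone, 3 with limma and 2 to 14 with a library left out, the 14 without FOXA2f/f replicate 4 (6 lower, 8 higher) and the 2 without FOXA2H-KO replicate 2. They numbered 6 with DESeq2, upper quartile factors, at least 10 counts in every library and scaling to hepatocyte markers. The share of all genes at that p was 5.17% in the main test and was not computed for the other settings. Genes without overlap numbered 9, against 5 with library size alone (4 lower, C8a higher), 5 with limma and 10 to 19 with a library left out. With library size alone 3.24% of all genes were lower and 8.27% higher without overlap, and with limma this share was not computed. The shares of all genes without overlap also rose with a library left out, from 5.96% lower and 4.54% higher to 8.3% to 18.4% lower and 7.36% to 18% higher, the most without FOXA2f/f replicate 4. Scaling to hepatocyte markers gave 8 complement genes without overlap (7 lower, C8a higher), where 6.46% of all genes were lower and 3.88% higher. The hepatocyte-made median log2 fold change was −0.15 with library size alone and −0.13 with limma, where the median of all genes was 0.10 and 0.08. With limma the median of the other complement genes was 0.048, and with a library left out it was −0.21 to −0.070. That of the genes of other sources was −0.16 to 0.55 with a library left out. Foxa2 was lower throughout, and its adjusted p was over 0.05 with library size alone (log2 fold change −3.74), limma (−1.95), scaling to hepatocyte markers (−3.85) and with a library left out (−4.17 to −3.63) other than FOXA2f/f replicate 2. The cause was not tested.

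The labels do not say what a shared replicate number marks. Same-numbered libraries had correlations of deviations from the group means of −0.10, 0.066 and −0.25, and differently numbered ones of −0.21 to 0.29. With 3 libraries per group, these correlations cannot show whether the numbers pair the samples. With the number as a replicate block, 0 genes were called, 2 complement genes were at an unadjusted p under 0.05, and the log2 fold change of Foxa2 was −3.88 with an adjusted p over 0.05. The share of all genes at that unadjusted p was not computed for the block.

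The sign turned for C1s1, C3 and Serping1 with library size alone (0.10, 0.032 and 0.084) and limma (0.10, 0.047 and 0.10). With a library left out, the log2 fold change spanned 0 for C1qb (−0.025 to 1.01), C1qc (−0.038 to 1.04), C1s1 (−0.050 to 0.017), C6 (−0.10 to 0.20), C7 (−0.16 to 0.70), C9 (−0.16 to 0.21), Cd55 (−0.16 to 0.64), Cfb (−0.58 to 0.035), Cfp (−0.23 to 0.80), Clu (−0.10 to 0.11), Fcna (−0.12 to 0.74), Mbl1 (−0.29 to 0.014) and Serping1 (−0.094 to 0.031). All of these genes had overlapping groups. Cfb, C7, C2 and C5ar1 rest on low counts.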
